A study of Mus musculus with 12 samples.

Results

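The genes described here are 50 genes that work in G2 and mitosis, the stretch of the cell cycle in which a cell prepares for division and then divides. They were picked by symbol from a list of mitotic kinases, cyclins, checkpoint and kinetochore proteins, motor proteins and condensin subunits, with no threshold on measured values. All 50 were found among the 24883 gene entries of the deposited tables, and all 50 passed the filter on low values. Expression was measured by RNA-seq in acute myeloid leukaemia cells carrying the MLL-AF9 transgene and green fluorescent protein (GFP), which were sorted by GFP from the bone marrow of 12 mice. The relapse group held 4 mice, sampled 10 days after chemotherapy ended. The iCT group (induction chemotherapy with doxorubicin, a topoisomerase poison, and cytarabine, a nucleoside analogue) held 3 mice, sampled 3 days after it ended. The vehicle group held 5 mice, which carried MLL-AF9 leukaemia and received no chemotherapy, and no sampling day is given for them. Each library came from a separate mouse, so p-values measure the spread between mice. The promoter that drives the transgene, the doses, the age and strain of the recipient mice, and whether the leukaemia came from 1 clone, are details not given in the sources used here. Relapse is the submitters' name for the later time point.

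Entry into mitosis is driven by CDK1 bound to its B-type cyclins, which is held inactive by phosphorylation until CDC25 phosphatases remove the inhibitory phosphates. The spindle checkpoint then keeps the anaphase-promoting complex from acting until every chromosome is attached to microtubules, after which cyclin B and securin are destroyed and the sister chromatids part. In dividing cells, leukaemia cells among them, most of these genes are transcribed together late in the cycle. The CHR promoter element (TTTGAA) and the CCAAT box bound by NF-Y are known promoter features of this programme, read by complexes that contain LIN proteins with E2F4 in resting cells and with MYBL2 and FOXM1 in cycling cells.

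Promoters are shown because shared promoter letters are a well-known feature of these genes and played no part in choosing them. Mouse RefSeq promoter windows (build GRCm38.p6, 250 bases before to 50 after the annotated start) were matched for 43 of the 50 genes. TTTGAA, searched on both strands, was present in 30 of the 43 genes (69.8%), against 20.2% of 27025 mouse genes with windows of the same length. A gene was counted if any of its windows held a match. CCAAT, searched on both strands, was present in 32 of the 43 (74.4%), against 41.1% of the 27025 genes. Both were present in 26 of the 43 (60.5%), against 8.97% of the 27025. The 2 words share no overlap by which 1 match would count for both. Matches to TTTGAA lay within 50 bases of the start in 27 of the 43 genes (62.8%), against 5.72% of the 27025 genes. The stretch upstream of the start is printed below for 6 genes, in the direction of transcription, with matches in capitals. They are 2 genes called between groups (Cdc25b and Kif11), 3 that passed in no comparison (Cdk1, Cdc20 and Ncapg), and Mki67, a widely used marker of proliferation. The print stops before any annotated exon, so the last 26 bases before the start are left out for Cdk1, 9 for Cdc20 and 6 for Ncapg. Those of Cdk1 held a further TTTGAA match, 15 bases before the start, and those of Cdc20 a further CCAAT match, 8 bases before it.
Cdc25b: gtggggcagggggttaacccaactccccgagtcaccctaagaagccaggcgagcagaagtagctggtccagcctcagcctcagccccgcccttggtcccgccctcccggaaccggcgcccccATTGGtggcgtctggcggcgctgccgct
Kif11: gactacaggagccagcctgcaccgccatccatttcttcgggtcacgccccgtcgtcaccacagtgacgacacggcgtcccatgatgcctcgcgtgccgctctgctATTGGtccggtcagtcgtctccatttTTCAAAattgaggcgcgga
Cdk1: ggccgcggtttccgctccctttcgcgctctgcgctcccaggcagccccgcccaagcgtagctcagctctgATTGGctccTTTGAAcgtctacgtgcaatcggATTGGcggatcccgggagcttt
Cdc20: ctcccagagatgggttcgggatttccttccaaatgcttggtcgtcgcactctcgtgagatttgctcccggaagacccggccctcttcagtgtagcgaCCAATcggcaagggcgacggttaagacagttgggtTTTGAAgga
Mki67: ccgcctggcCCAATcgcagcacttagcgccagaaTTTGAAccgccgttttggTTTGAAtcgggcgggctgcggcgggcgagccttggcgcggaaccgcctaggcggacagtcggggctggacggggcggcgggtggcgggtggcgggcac
Ncapg: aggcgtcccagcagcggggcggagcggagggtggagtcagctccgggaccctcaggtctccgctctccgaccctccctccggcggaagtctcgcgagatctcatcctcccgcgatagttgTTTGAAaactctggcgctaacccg
The windows lie at chr2:131186798-131186947 (plus strand) for Cdc25b, chr19:37376232-37376381 (plus) for Kif11, chr10:69352939-69353062 (minus) for Cdk1, chr4:118437353-118437493 (minus) for Cdc20, chr7:135716380-135716529 (minus) for Mki67 and chr5:45669775-45669918 (plus) for Ncapg. In Kif11 a CCAAT box read on the opposite strand began 45 bases before the start and a CHR element read on the opposite strand began 19 bases before it. Cdc20 had its CHR element 18 bases before the start, Ncapg had one 30 bases before it, and Mki67 had a pair, 116 and 98 bases before it. The Cdc25b window held a CCAAT box on the opposite strand, 28 bases before the start, and no TTTGAA. Nusap1 had neither word in its window. These matches describe the letters only, and no binding was measured.

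**Figure D1:**
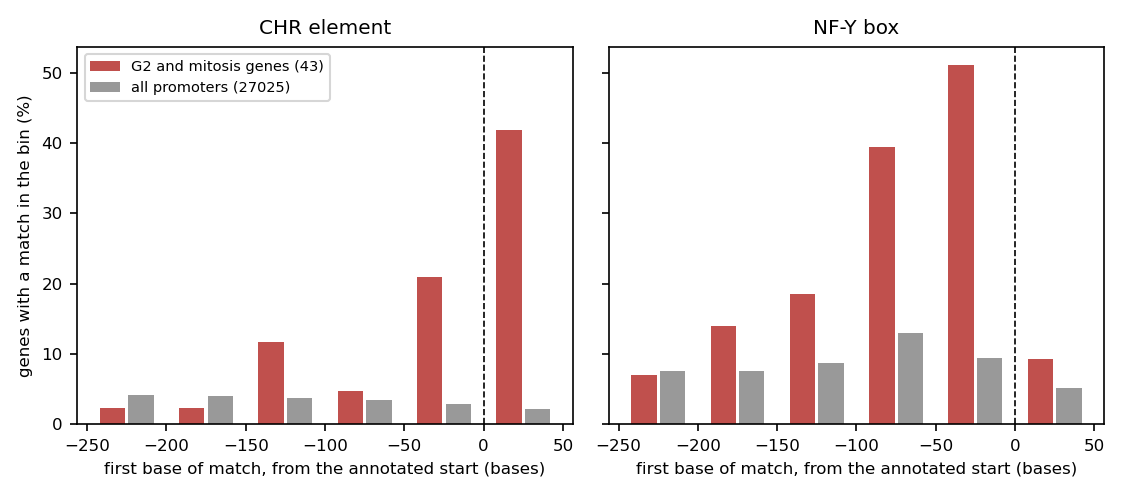
Share of genes (vertical axis, percent) with at least 1 match in each 50-base bin along the promoter window (horizontal axis, bases from the annotated start, dashed line), for the CHR element (left) and the NF-Y box (right), in 43 G2 and mitosis genes (red) and all 27025 promoters (grey). The bins use 1 window per gene, whereas the shares in the text count any window of a gene. CHR matches peaked in the bin just after the start (41.9% of the genes, against 2.18% of all promoters), and NF-Y boxes in the bin just before it (51.2%, against 9.44%).

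The 30 genes with the CHR element in their window had a median log2 change of -0.08 in iCT against vehicle cells and 0.23 in relapse against iCT cells, and the 13 genes without it had medians of -0.14 and 0.16. In relapse against vehicle cells the medians were 0.17 with the element (26 of 30 positive) and -0.04 without it (6 of 13 positive). Of all 11019 genes tested, 6546 were positive there. The differences between these classes were not tested. Both genes called lower in iCT against vehicle cells (below) were among the 13, so 2 of 13 and 0 of 30 were called, against 9.62% of all genes. In relapse against iCT cells 2 of the 13 and 3 of the 30 were called, against 9.72% of all genes.

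Levels are given as the authors' FPKM, which divides a gene's fragments by its transcript length and by the total of its library. Averaged over the 12 libraries, 5 of the genes stood above 100 FPKM, 35 between 10 and 100, and 10 under 10. The highest were Ube2c (137 FPKM), the ubiquitin-conjugating enzyme of the anaphase-promoting complex, Ccnb2 (129), a B-type cyclin, Cks2 (125), a small subunit of cyclin-dependent kinases, Bub3 (118), a checkpoint protein, and Birc5 (105), the survivin subunit of the chromosomal passenger complex. The lowest were the large kinetochore proteins Cenpf (1.45) and Cenpe (2.03), the spindle-pole protein Aspm (2.78) and the kinesin Kif20b (2.87). The 50 genes together summed to between 1632 FPKM (vehicle mouse 1) and 2100 FPKM (iCT mouse 1) per library, which was 0.195% to 0.263% of all FPKM.

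Depth differed between mice and limits the iCT group most. The intervals in the deposited tables implied 361914 fragments in iCT mouse 1 and 1225254 to 8359793 in the other 11 libraries. In iCT mouse 1 the median of the 50 genes rested on 23.2 implied fragments and the lowest, Cdc25b, on 1.25, against medians of 101 to 696 in the other libraries. The median SD of the genes on the log2 scale was 0.14 in relapse, 0.24 in iCT (0.17 without iCT mouse 1) and 0.19 in vehicle. The lowest of its group for most of the 50 genes was relapse mouse 3 (28 of 50, against 29.0% of all genes tested), iCT mouse 3 (28 of 50, against 21.5%) and vehicle mouse 1 (27 of 50, against 35.9%). The leukaemia and myeloid progenitor list held Hoxa9, Hoxa10, Meis1, Kit, Cd34, Mpo, Elane, Ptprc, Itgam and Csf1r, and all 10 passed the filter on low values. They summed to 5815 to 9189 FPKM in relapse, 5747 to 8475 in iCT and 6942 to 9104 in vehicle, which does not show the level of each gene. In iCT against vehicle cells 9 of the 10 changes were negative (median -0.24, lowest -1.79), against 6408 of all 11019 genes. There 2 of the 10 were called lower, against 6.31% of all genes. In relapse against iCT cells 9 were positive and 2 called higher, against 6.62% called higher of all genes. Transcripts of other marrow cells also moved with the groups. Macrophage markers summed to 46.5 to 60.8 FPKM in relapse, 144 to 269 in iCT and 70.1 to 118 in vehicle libraries. Of 8 tested, 6 were called higher in iCT than in vehicle and 6 lower in relapse than in iCT. Osteoclast markers summed to 14.3 to 77.3 FPKM in relapse, 143 to 662 in iCT and 11.7 to 26.6 in vehicle. Of 5 tested, 5 were called higher in iCT than in vehicle and 5 lower in relapse than in iCT. Mature neutrophil markers summed to 6830 to 16040 FPKM in relapse, 15555 to 19912 in iCT and 4108 to 15030 in vehicle, with 4 of 12 called higher in iCT than in vehicle and 3 of the 12 having negative changes. In relapse against iCT cells 1 of these 12 was called higher and 2 lower. Erythroid markers summed to 60.3 to 204 FPKM in relapse, 8.11 to 13.5 in iCT and 17.0 to 494 in vehicle, with Car1, Rhag and Slc4a1 among those at 0 in every iCT library. Of 9 tested, 4 were called lower in iCT than in vehicle and 3 higher in relapse than in iCT. Of all genes, 3.31% were called higher and 6.31% lower in iCT than in vehicle. In relapse against iCT cells 6.62% of all genes were called higher and 3.1% lower. The part of these marrow cell transcripts in the results below was not tested. In bulk RNA, fewer cells of a type and less RNA per cell cannot be told apart.

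The first comparison asked what the mitotic programme looked like 3 days after chemotherapy. Few of its genes passed the test. By limma with Benjamini-Hochberg adjustment over 11019 genes, 0 of the 50 genes were called higher in iCT than in vehicle cells and 2 were called lower (Cdc25b and Nusap1). Of all genes tested, 3.31% were called higher and 6.31% lower (9.62% in either direction). Unadjusted p was under 0.05 for 8 of the 50 genes, against 29.8% of all genes tested. The fitted change was positive for 17 genes and negative for 33, but for 32 and 18 with length and GC trends removed. Of all 11019 genes tested, it was positive for 4611 and negative for 6408 in the main fit. The median log2 change of the 50 genes was -0.08, and that of all genes tested was -0.08. The 3 iCT mice lay wholly above the vehicle mice for 3 genes (5.49% of all genes tested did so) and wholly below them for 3 (10.6% of all).

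The second comparison set relapse cells against vehicle cells. None of the 50 genes passed (0 of 50, smallest adjusted p = 0.173, limma), as was the case for all genes (0 of 11019, 0.0%), with unadjusted p under 0.05 for 11 of the 50 and for 14.6% of all genes tested. The fitted change was positive for 38 genes and negative for 12, with a median of 0.14 on the log2 scale, against 0.06 for all genes. Of all 11019 genes, 6546 were positive and 4473 negative. The median of the 50 genes was 0.08 without vehicle mouse 1 (0.04 for all genes), and 0.07 under median-of-ratios scaling, with 32 positive and 18 negative. Relapse mice lay wholly above vehicle mice for 9 of the 50 genes and wholly below them for 0, against 9.72% and 4.03% of all genes. With limma's array weights, 4 genes were called higher and 0 lower (Aspm, Kif20a, Kif4 and Ncapd2), against 5.86% of all genes called higher and 8.81% called in either direction. When the iCT libraries were left out of the fit, the same 4 genes were called higher and 0 lower, against 3.78% and 5.65% of all genes.

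The third comparison set relapse cells, at 10 days, against iCT cells, at 3 days. Here 5 of the 50 genes rose (Cdc25b, Kif11, Kif4, Ncapd2 and Nusap1) and 0 fell, against 6.62% and 3.1% of all genes called higher and lower (9.72% in either direction) by the same limma fit. Unadjusted p was under 0.05 for 16 of the 50, against 29.0% of all genes. The fitted change was positive for 37 genes and negative for 13, and its median was 0.21 on the log2 scale, against 0.16 for all genes. Of all 11019 genes, 7303 were positive and 3716 negative. Scaling by the median of ratios took the median of all genes to 0.06 and that of the 50 genes to 0.09, with 30 of the 50 positive. Relapse mice lay wholly above iCT mice for 14 genes and wholly below them for 1 (Ccnb1), against 16.9% and 6.33% of all genes (23.3% in either direction). The 3 comparisons share groups, so a low value in the iCT mice enters the first and the third alike.

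**Figure D2:**
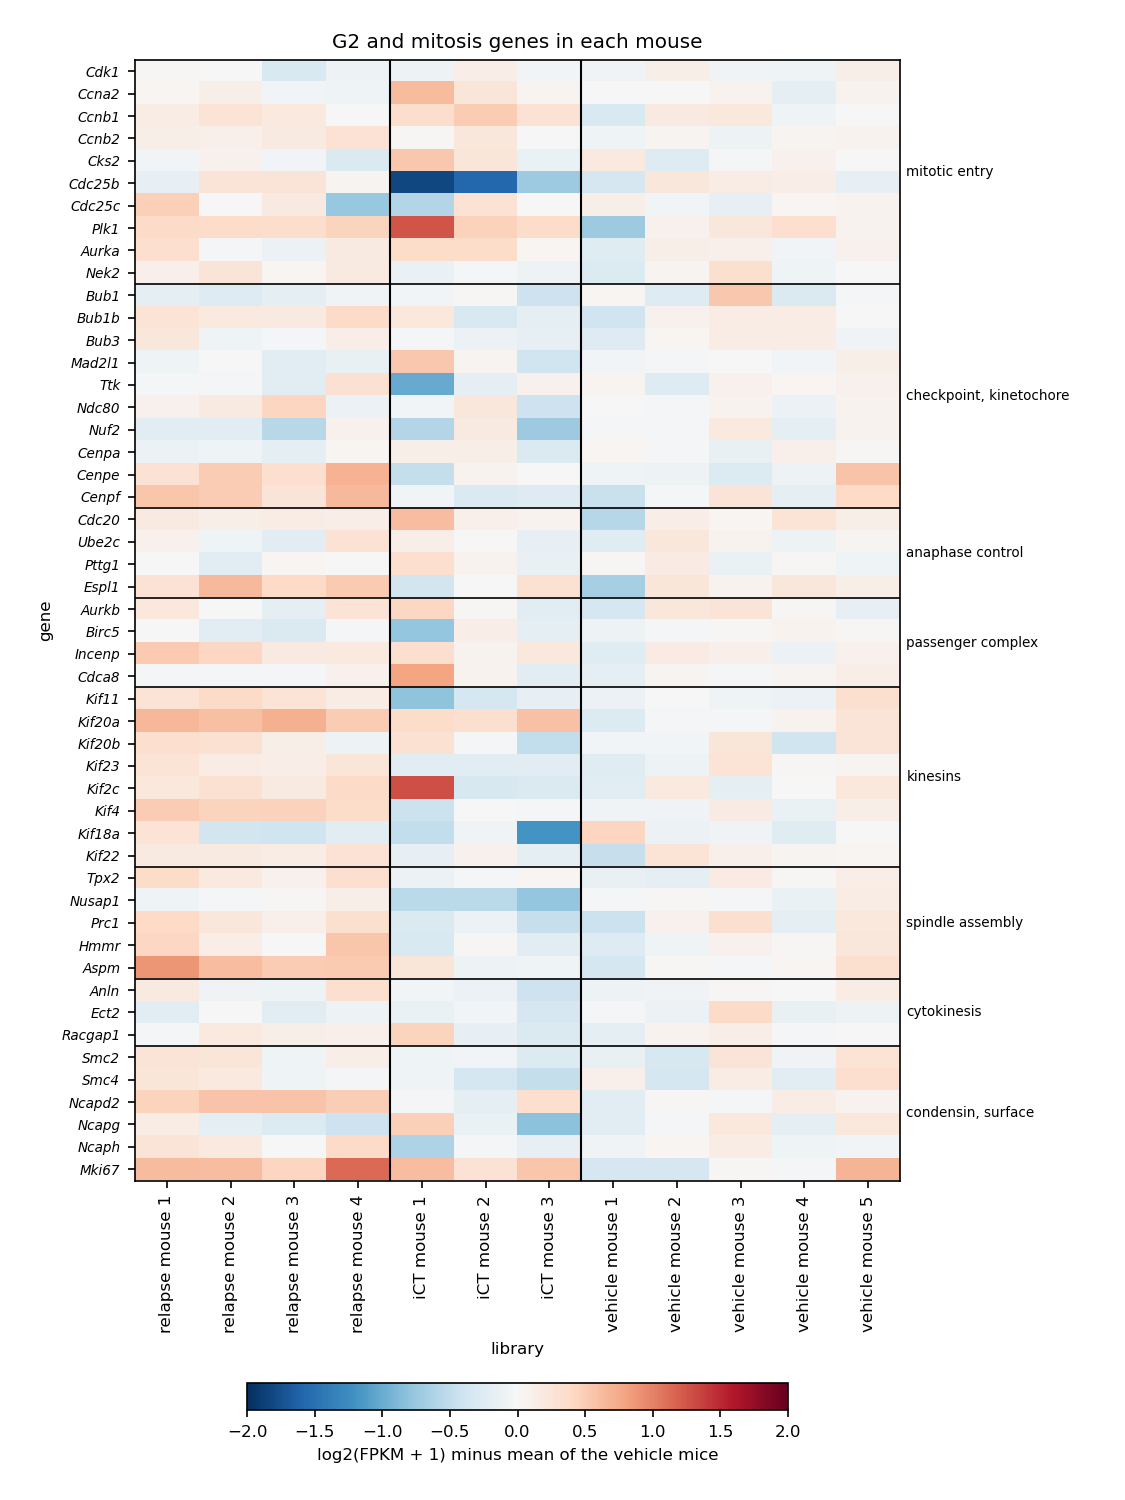
Each cell is 1 gene (vertical axis, ordered by role) in 1 library (horizontal axis, relapse, iCT and vehicle mice from left to right), coloured by log2(FPKM + 1) minus the mean of the 5 vehicle mice. Cdc25b is the darkest blue in iCT mice 1 and 2, while Plk1 and Kif2c are deep red in iCT mouse 1 alone.

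**Figure D3:**
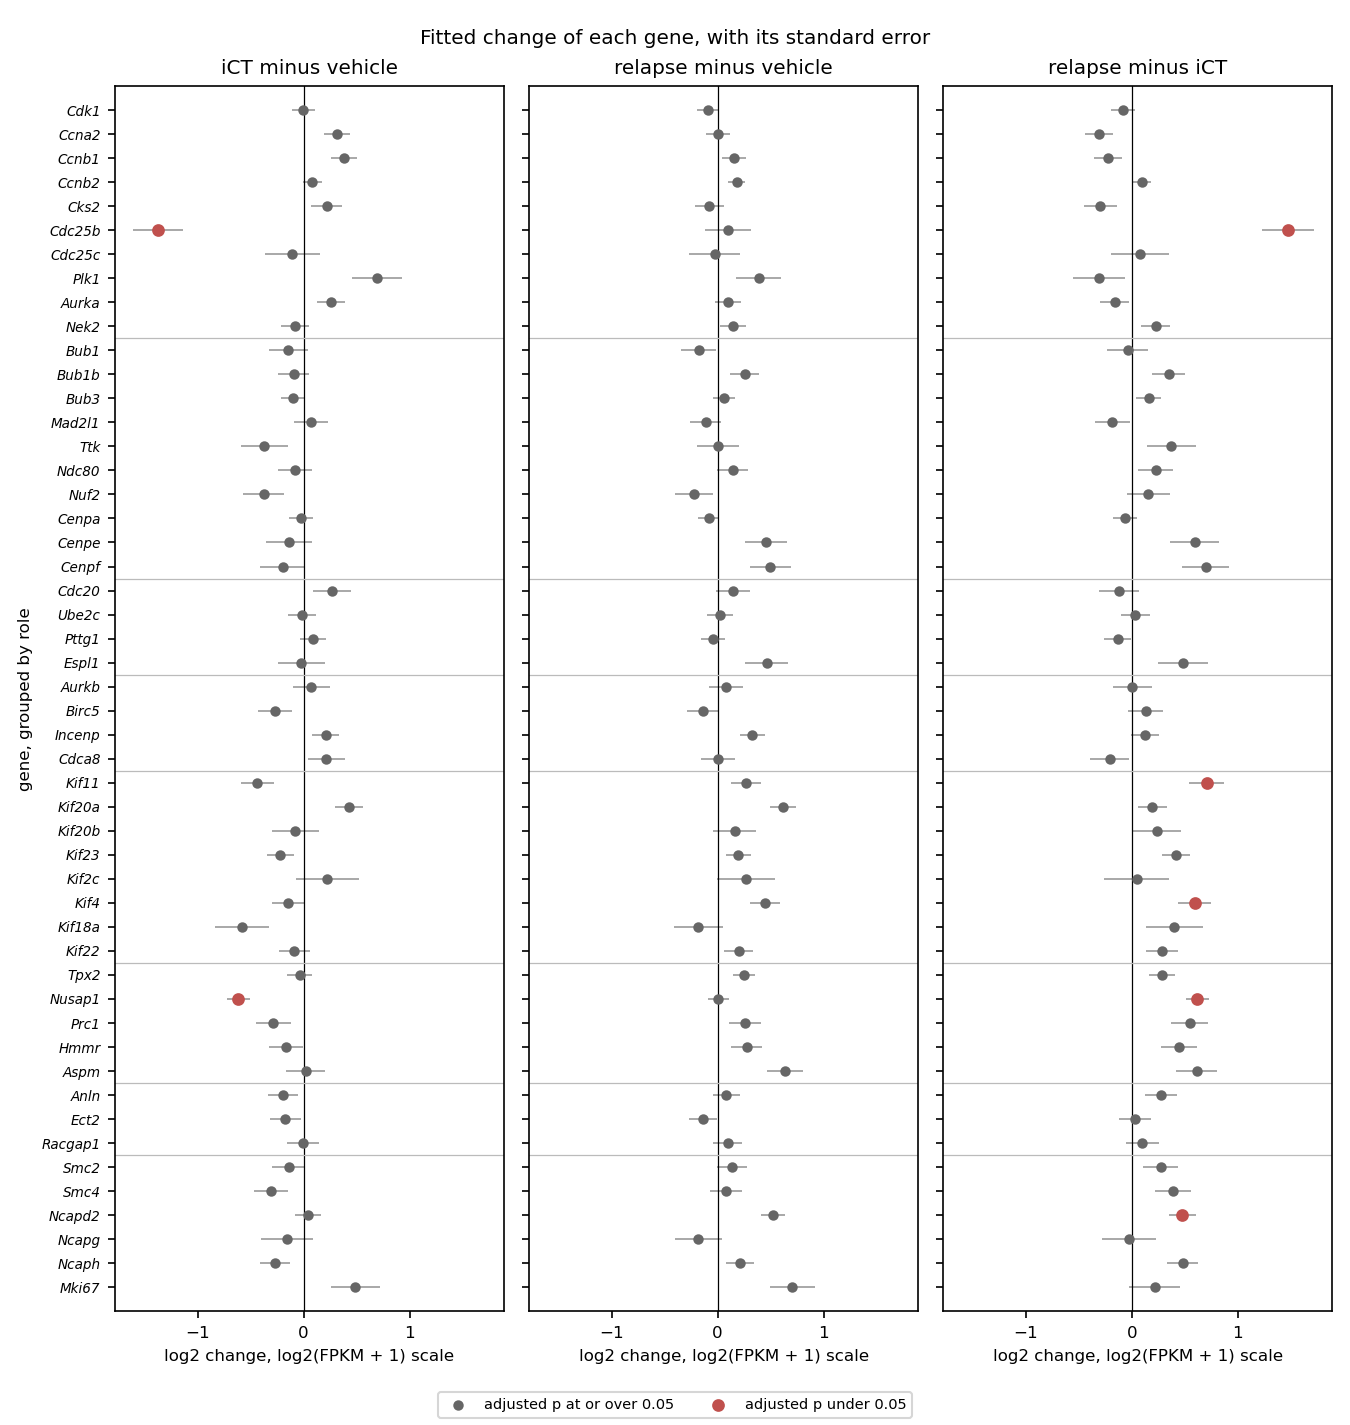
Fitted log2 change (horizontal axis, log2(FPKM + 1) scale) of each of the 50 genes (vertical axis, ordered by role) for iCT minus vehicle, relapse minus vehicle and relapse minus iCT. Points are estimates and bars their standard errors, and red points have an adjusted p under 0.05: 2 genes on the left, 0 in the middle and 5 on the right.

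Among the 10 genes of mitotic entry, Cdc25b changed most. It encodes a phosphatase that removes the inhibitory phosphates from CDK1, and lies at chr2:131186948-131198511 (GRCm38). It had 7.46, 10.38, 10.43 and 8.92 FPKM in relapse mice 1 to 4, 1.70, 2.19 and 4.73 FPKM in iCT mice 1 to 3, and 6.57, 10.13, 9.56, 9.42 and 7.47 FPKM in vehicle mice 1 to 5. All 3 iCT mice were below every relapse and every vehicle mouse, and relapse and vehicle mice overlapped. Cdc25b averaged 9.30 ± 1.41 FPKM in relapse (SD, n = 4), 2.88 ± 1.63 in iCT (n = 3) and 8.63 ± 1.53 in vehicle mice (n = 5). In iCT against vehicle cells it fell by 1.38 on the log2 scale (SE 0.24, adjusted p = 0.00488, limma). In relapse against iCT cells it rose by 1.48 (SE 0.25, adjusted p = 0.00496, limma), while the relapse minus vehicle change was 0.10 (adjusted p = 0.879). The authors' 95% interval for iCT mouse 1 ran from 0 to 4.75 FPKM. Without that library the change in iCT cells was -1.15 (adjusted p = 0.013, limma), and the gene was called in all 22 fits run, in both comparisons. A microRNA entry, Mir3098, overlaps its locus. Its sister phosphatase gene Cdc25c had means of 6.93 ± 2.58 FPKM in relapse, 6.40 ± 2.14 in iCT and 6.74 ± 0.60 in vehicle mice, and passed in no comparison.

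Cdk1, the mitotic kinase, had 44.39, 43.79, 35.33 and 40.87 FPKM in relapse mice, 40.70, 48.16 and 42.06 in iCT mice, and 41.54, 47.61, 41.50, 40.90 and 47.42 in vehicle mice. The groups overlapped fully, and the iCT minus vehicle change was -0.01 (SE 0.11, adjusted p = 0.979, limma). Ccnb1, which encodes cyclin B1, had 59.22, 64.63, 61.52 and 53.98 FPKM in relapse mice, 68.23, 76.21 and 65.45 in iCT mice, and 42.93, 60.74, 62.20, 50.03 and 53.68 in vehicle mice. All 3 iCT mice were above every other mouse. The change in iCT cells was 0.38 (SE 0.12, adjusted p = 0.0709, limma), past the threshold under both other scalings (0.42 by median of ratios, adjusted p = 0.0442, and 0.39 by quantiles, adjusted p = 0.0495). Plk1, the polo kinase that promotes mitotic entry and spindle assembly, had 54.75, 54.39, 53.45 and 57.02 FPKM in relapse mice, 100.92, 57.91 and 54.34 in iCT mice, and 24.89, 44.58, 49.28, 52.94 and 43.76 in vehicle mice. Relapse and iCT mice were all above the vehicle mice, with iCT mouse 1 highest and vehicle mouse 1 lowest. The iCT minus vehicle change of Plk1 was 0.70 (adjusted p = 0.0786, limma) and 0.42 without iCT mouse 1 (adjusted p = 0.286). The other members of this role (Ccna2, Ccnb2, Cks2, Aurka and Nek2) had changes in iCT cells between -0.09 and 0.31. In each comparison 0 of them passed, against 9.62%, 0.0% and 9.72% of all genes.

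Spindle checkpoint and kinetochore genes showed no call in any comparison (0 of 10 in each, limma), against 9.62%, 0.0% and 9.72% of all genes. The fitted change of these 10 genes in iCT cells was negative for 9, with a median of -0.12. Of all 11019 genes 6408 were negative, with a median of -0.08. Of the 10 genes, 8 were negative under median-of-ratios scaling, 7 under quantile normalization and 6 with length and GC trends removed. Ttk, the checkpoint kinase known as MPS1, had 8.36, 8.43, 7.37 and 10.94 FPKM in relapse mice, 3.83, 7.45 and 9.28 in iCT mice, and 9.03, 7.08, 9.24, 8.91 and 9.29 in vehicle mice. Its iCT minus vehicle change of -0.37 rested on iCT mouse 1, and was -0.05 without it. Nuf2, a subunit of the NDC80 complex that grips microtubules, had 28.56, 28.63, 22.48 and 35.39 FPKM in relapse mice, 21.83, 37.75 and 19.80 in iCT mice, and 32.41, 32.53, 38.13, 29.13 and 34.93 in vehicle mice. Here iCT mice 1 and 3 were below every vehicle mouse and iCT mouse 2 was above all but 1 of them. The checkpoint genes Bub1, Bub1b, Bub3 and Mad2l1 and the centromeric histone gene Cenpa had changes in iCT cells between -0.14 and 0.07. The motor gene Cenpe and the kinetochore gene Cenpf had the lowest levels. Cenpf averaged 2.11 ± 0.34 FPKM in relapse (n = 4), 0.91 ± 0.16 in iCT (n = 3) and 1.24 ± 0.51 in vehicle mice (n = 5), and its relapse minus iCT change of 0.70 had an adjusted p of 0.0623 (limma).

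Of the 4 genes of anaphase control, 0 were called in each comparison (limma), against 9.62%, 0.0% and 9.72% of all genes. Cdc20, the activator of the anaphase-promoting complex, had 65.69, 62.94, 64.59 and 63.42 FPKM in relapse mice, 89.66, 62.05 and 61.10 in iCT mice, and 38.66, 63.69, 59.56, 70.13 and 62.97 in vehicle mice. The highest value was that of iCT mouse 1 and the lowest that of vehicle mouse 1, and the rest lay between 59.6 and 70.1 FPKM. Pttg1, which encodes securin, the inhibitor of separase, had 39.02, 33.31, 39.92 and 38.47 FPKM in relapse mice, 49.15, 40.94 and 34.78 in iCT mice, and 39.35, 43.65, 35.30, 39.50 and 36.55 in vehicle mice. The 3 groups overlapped. Espl1, which encodes separase, the protease that cuts cohesin, had 7.01, 9.31, 7.65 and 8.47 FPKM in relapse mice, 4.11, 5.59 and 7.08 in iCT mice, and 3.14, 6.80, 5.91, 6.70 and 6.17 in vehicle mice. All 4 relapse mice were above the vehicle mice, with a change of 0.46 (SE 0.20) and an adjusted p of 0.328 (limma).

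The chromosomal passenger complex corrects faulty attachments and steers cytokinesis. In each comparison 0 of its 4 genes were called (limma), against 9.62%, 0.0% and 9.72% of all genes. Aurkb, its kinase, had 74.02, 64.16, 55.49 and 77.35 FPKM in relapse mice, 84.93, 64.38 and 54.79 in iCT mice, and 49.96, 74.43, 76.17, 64.80 and 56.31 in vehicle mice. The groups overlapped over most of their range. Birc5 had 112.28, 96.99, 92.47 and 109.38 FPKM in relapse mice, 65.57, 124.10 and 100.02 in iCT mice, and 105.27, 110.93, 114.82, 118.51 and 115.02 in vehicle mice. The iCT mice held both the lowest and the highest value. Cdca8, which encodes borealin, had 76.94, 77.81, 77.90 and 83.98 FPKM in relapse mice, 136.75, 82.65 and 67.71 in iCT mice, and 68.75, 81.76, 76.43, 81.79 and 86.23 in vehicle mice. Apart from iCT mouse 1, all values lay between 67.7 and 86.2 FPKM. Incenp, the scaffold of the complex, averaged 37.3 ± 4.45 FPKM in relapse, 34.2 ± 3.32 in iCT and 29.6 ± 3.50 in vehicle mice.

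Kinesins held 2 of the 5 genes that rose in relapse against iCT cells (2 of 8 kinesins, against 6.62% of all genes called higher). Kif11, the motor that pushes spindle poles apart (chr19:37376403-37421859), had 24.07, 26.13, 24.25 and 22.02 FPKM in relapse mice, 10.93, 15.37 and 17.58 in iCT mice, and 18.10, 19.82, 18.56, 18.14 and 25.09 in vehicle mice. The iCT mice were below every other mouse, and relapse and vehicle mice overlapped through vehicle mouse 5. Kif11 rose by 0.71 in relapse against iCT cells (SE 0.16, adjusted p = 0.0196, limma), and its iCT minus vehicle change of -0.44 had an adjusted p of 0.0903. The rise was no longer called without relapse mouse 2 (adjusted p = 0.0575), with array weights (0.55, adjusted p = 0.0858) or with only these 2 groups in the fit (adjusted p = 0.0739). Kif4, a chromosome-bound motor (chrX:100626065-100727271), had 7.08, 6.70, 6.81 and 6.27 FPKM in relapse mice, 3.20, 4.70 and 4.57 in iCT mice, and 4.39, 4.39, 5.35, 4.14 and 5.14 in vehicle mice. The relapse mice were above all others, and iCT and vehicle mice overlapped. It rose by 0.59 in relapse against iCT cells (SE 0.16, adjusted p = 0.0338, limma). That call was lost without any 1 relapse mouse, without iCT mouse 1 or without vehicle mouse 5, with changes of 0.45 to 0.67 and adjusted p of 0.0274 to 0.0854 over all libraries left out in turn. It was also lost under both other scalings, with array weights, with only these 2 groups in the fit and with length and GC trends removed (adjusted p of 0.0636 to 0.136). With mouse number as a block in the fit, Kif4 was not called either.

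Kif20a, the kinesin that carries the passenger complex to the spindle midzone, ordered the groups differently. It had 21.05, 20.06, 21.72 and 18.90 FPKM in relapse mice, 16.90, 16.47 and 20.02 in iCT mice, and 10.59, 12.78, 12.51, 13.56 and 15.75 in vehicle mice. Relapse and iCT mice were all above every vehicle mouse. The iCT minus vehicle change was 0.43 (SE 0.13, adjusted p = 0.0579, limma) and the relapse minus vehicle change 0.62 (SE 0.12, adjusted p = 0.173). The iCT change passed under median-of-ratios scaling (0.47, adjusted p = 0.034), quantile normalization (0.45, adjusted p = 0.0376) and with length and GC trends removed (0.52, adjusted p = 0.0161). The relapse change passed with array weights (0.54, adjusted p = 0.0167) and with the iCT libraries left out of the fit (0.62, adjusted p = 0.0245). Its locus overlaps the entries of Brd8 and Cdc23, and the strand used in counting is not given in the sources used here. Kif2c, which takes microtubules apart at the centromere, stood at 40.38 FPKM in iCT mouse 1, at 12.55 and 12.90 in the other iCT mice, and between 13.6 and 21.2 FPKM in relapse and vehicle mice. Its relapse minus iCT change was 0.05, but 0.58 without iCT mouse 1, and was then called (adjusted p = 0.0351, limma). The other kinesins (Kif18a, Kif20b, Kif22 and Kif23) passed in no comparison, with changes in iCT cells between -0.58 and -0.08.

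Among 5 spindle assembly genes, Nusap1, like Cdc25b, was lowest in the iCT mice. It encodes a protein that binds microtubules near chromosomes (chr2:119618298-119650160). It had 21.79, 22.76, 23.70 and 25.16 FPKM in relapse mice, 15.69, 15.71 and 13.19 in iCT mice, and 22.94, 23.68, 22.78, 21.13 and 25.78 in vehicle mice. The 3 iCT mice lay close together and below all 9 other mice, and the relapse mice lay within the range of the vehicle mice. Nusap1 fell by 0.61 on the log2 scale in iCT against vehicle cells (SE 0.11, adjusted p = 0.00575, limma). It rose by 0.62 in relapse against iCT cells (SE 0.11, adjusted p = 0.00735), with a relapse minus vehicle change of 0.01. Both calls were kept without any 1 library (adjusted p up to 0.0265). The fall missed the threshold with length and GC trends removed (-0.39, adjusted p = 0.0569), and the rise with only these 2 groups in the fit (adjusted p = 0.0532). Both calls of Nusap1 were also lost with mouse number as a block in the fit. The entry overlaps that of Oip5, so reads of the pair may not be separable. Prc1, which bundles midzone microtubules, had 34.19, 30.40, 27.57 and 32.55 FPKM in relapse mice, 21.01, 23.64 and 18.52 in iCT mice, and 18.83, 27.45, 32.34, 22.62 and 29.86 in vehicle mice. Relapse mice were all above iCT mice, with a change of 0.55 (SE 0.17, adjusted p = 0.0621, limma), and vehicle mice spanned both groups. Aspm averaged 3.94 ± 0.63 FPKM in relapse (n = 4), 2.23 ± 0.44 in iCT (n = 3) and 2.20 ± 0.53 in vehicle mice (n = 5). Its relapse minus vehicle change was 0.63 (adjusted p = 0.179, limma), and it was called with array weights (adjusted p = 0.0319) and with the iCT libraries left out of the fit (adjusted p = 0.041). Its relapse minus iCT change of 0.61 was called without iCT mouse 1 (0.72, adjusted p = 0.0456). All 5 genes of this role, Tpx2 and Hmmr included, had positive changes in relapse against iCT cells, from 0.29 to 0.62. All 5 stayed positive under both other scalings and with length and GC trends removed. In the main fit all 8 kinesins, all 3 cytokinesis genes and 7303 of all 11019 genes tested were positive too.

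**Figure D4:**
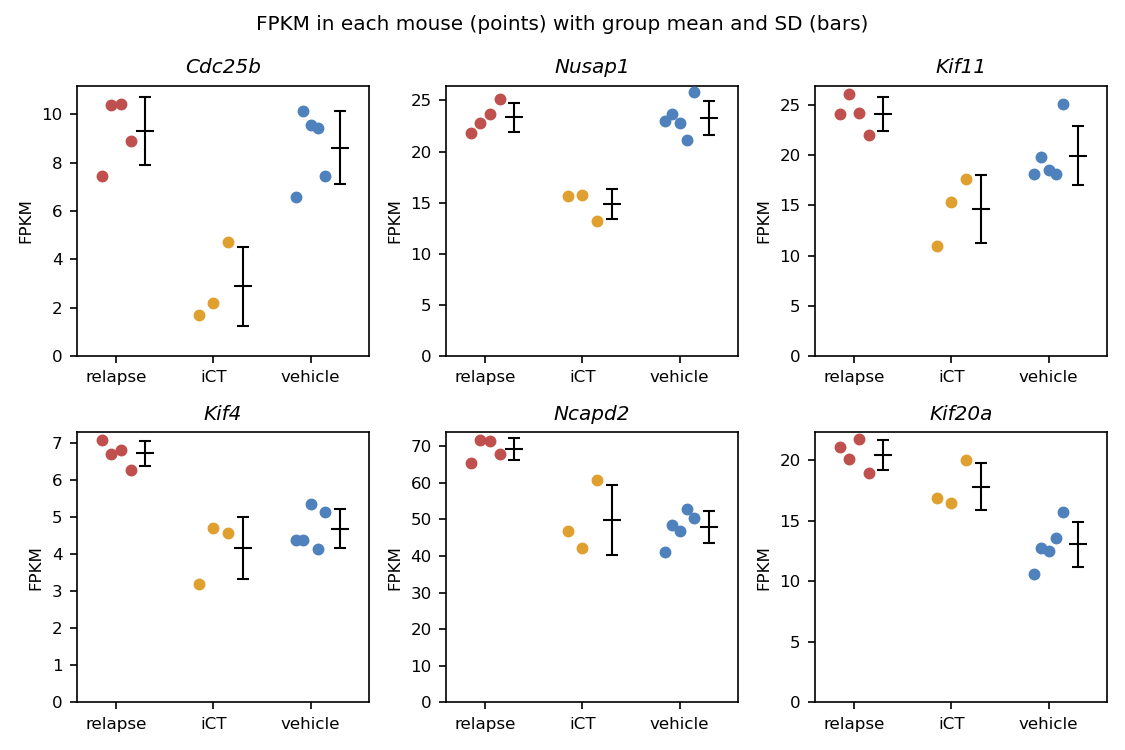
FPKM (vertical axis, from 0) of 6 genes in each mouse, with points for single mice and bars for the group mean and SD, in relapse (n = 4), iCT (n = 3) and vehicle (n = 5). Cdc25b, Nusap1 and Kif11 are lowest in all 3 iCT mice, Kif4 and Ncapd2 are highest in all 4 relapse mice, and Kif20a is lowest in all 5 vehicle mice.

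Cytokinesis genes did not pass in any comparison (0 of 3 in each, limma), against 9.62%, 0.0% and 9.72% of all genes. Anln, the contractile ring scaffold anillin, had 12.71, 10.50, 10.24 and 13.98 FPKM in relapse mice, 10.60, 10.16 and 8.07 in iCT mice, and 10.27, 10.52, 11.20, 11.05 and 12.39 in vehicle mice. Ect2, the exchange factor that activates RhoA at the division plane, had 12.44, 14.64, 12.37 and 13.56 FPKM in relapse mice, 13.34, 14.18 and 11.43 in iCT mice, and 14.48, 13.42, 19.52, 13.22 and 13.58 in vehicle mice. The groups overlapped for both, and Ect2 in vehicle mouse 3 stood above all others. Racgap1, a partner of Ect2, had changes within 0.10 of 0 in all 3 comparisons.

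Of the condensin and chromosome surface genes, Ncapd2 stood apart in relapse. It encodes a non-SMC subunit of condensin I (chr6:125168007-125191586) and had 65.39, 71.71, 71.48 and 68.02 FPKM in relapse mice, 46.83, 42.15 and 60.69 in iCT mice, and 41.19, 48.48, 46.93, 52.84 and 50.41 in vehicle mice. The relapse mice were above all others, and iCT and vehicle mice overlapped. Ncapd2 rose by 0.48 in relapse against iCT cells (SE 0.13, adjusted p = 0.0336, limma). Its relapse minus vehicle change was 0.52 (SE 0.11, adjusted p = 0.173), past the threshold with array weights (0.49, adjusted p = 0.0156) and with the iCT libraries left out of the fit (0.52, adjusted p = 0.0234). The call against iCT cells was lost without any 1 relapse mouse, without iCT mouse 1 or 2 or without vehicle mouse 5, with changes of 0.37 to 0.63 and adjusted p of 0.00853 to 0.0817 over all libraries left out in turn. It was also lost under median-of-ratios scaling, with array weights, with only these 2 groups in the fit and with length and GC trends removed (adjusted p of 0.077 to 0.11). With mouse number as a block in the fit, Ncapd2 was not called either.

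The other condensin genes did not pass. Smc4, an ATPase subunit, had 43.88, 42.58, 34.66 and 36.14 FPKM in relapse mice, 34.70, 28.73 and 26.22 in iCT mice, and 39.59, 28.77, 41.23, 31.50 and 46.82 in vehicle mice. Ncaph, the kleisin that closes the condensin I ring, had 29.01, 27.80, 24.11 and 31.76 FPKM in relapse mice, 15.44, 23.45 and 21.43 in iCT mice, and 22.97, 24.86, 26.97, 22.69 and 23.27 in vehicle mice. Relapse mice were all above iCT mice for Ncaph (change 0.48, SE 0.15, adjusted p = 0.0569, limma), and overlapped them for Smc4. Mki67, which encodes the Ki-67 antigen, a protein that coats mitotic chromosomes, had 13.56, 13.42, 11.56 and 19.55 FPKM in relapse mice, 13.39, 10.47 and 12.67 in iCT mice, and 6.45, 6.39, 8.51, 8.14 and 13.97 in vehicle mice. Vehicle mouse 5 stood with the relapse and iCT mice, and the other 4 vehicle mice were below all of them. The change of Mki67 was 0.49 in iCT against vehicle cells (SE 0.23, adjusted p = 0.177, limma) and 0.71 in relapse against vehicle cells (SE 0.21, adjusted p = 0.182).

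Transcript length and base composition moved with some of the changes. Across the 50 genes the Spearman correlation of the relapse minus iCT change with transcript length was 0.52, against 0.10 across all genes with a length, and with GC content it was -0.13, against 0.02. For the iCT minus vehicle change the correlation with GC content was 0.48, against 0.18 across all genes, and with length it was -0.29, against 0.07. For the relapse minus vehicle change the 50 genes were close to all genes, at 0.27 and 0.25 with length and 0.39 and 0.35 with GC content. These are correlations across genes of the same 12 libraries, and genes are not replicates. Length and GC content were taken from the longest GENCODE transcript of each symbol, which may differ from the lengths used for the FPKM. With length and GC trends removed, the median change of the 50 genes was 0.06 in iCT against vehicle cells and 0.02 in relapse against iCT cells. Cdc25b (-1.31) was then the 1 gene still called lower in iCT cells, Ccnb1 (0.59) and Kif20a were called higher, and Cdc25b, Kif11 and Nusap1 were still called higher in relapse than in iCT cells.

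Beyond the 50 genes, 129 further genes of the G2 and mitosis programme were tested (134 listed). In iCT against vehicle cells 6 were called higher and 7 lower (limma), in relapse against vehicle cells 0 in either direction, and in relapse against iCT cells 6 higher and 1 lower, against 9.62%, 0.0% and 9.72% of all genes called in either direction. Unadjusted p was under 0.05 for 32, 15 and 25 of the 129, against 29.8%, 14.6% and 29.0% of all genes. Among 14 transcription factor genes of the programme, Mybl2, E2f4, Nfya and Lin52 were called in iCT cells. Mybl2 had 31.83, 31.07, 31.21 and 31.48 FPKM in relapse mice, 61.82, 37.48 and 49.45 in iCT mice, and 21.85, 26.56, 27.55, 27.49 and 27.41 in vehicle mice. The iCT mice were above all others and the relapse mice above the vehicle mice. Mybl2 rose by 0.87 in iCT against vehicle cells (SE 0.14, adjusted p = 0.00373, limma) and fell by 0.61 in relapse against iCT cells (adjusted p = 0.0239). E2f4 rose by 0.63 in iCT cells (adjusted p = 0.0454, 0.154 without iCT mouse 1), and Nfya, a subunit of NF-Y, and Lin52 fell by 0.55 and 0.57 (adjusted p = 0.0368 and 0.0465). Foxm1 did not pass, with a change of 0.00 in iCT against vehicle cells and 0.37 in relapse against vehicle cells.

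Of 31 further spindle, centrosome and kinesin genes, Gtse1, Psrc1 and Kifc1 rose in iCT against vehicle cells and Stmn1 fell. Of all genes tested, 3.31% were called higher and 6.31% lower there. Gtse1, a microtubule-binding protein that also restrains p53 in human cells, had 13.91, 14.70, 14.43 and 14.37 FPKM in relapse mice, 25.96, 17.51 and 24.06 in iCT mice, and 7.27, 13.33, 11.31, 12.83 and 12.38 in vehicle mice. Its rise was 0.93 (SE 0.18, adjusted p = 0.0108, limma), and the iCT mice were above all others. Psrc1, another microtubule protein, rose by 1.05 (adjusted p = 0.0227), and Kifc1, a minus-end motor, rose by 0.57 (adjusted p = 0.0329, and 0.103 without iCT mouse 1). Stmn1, the abundant microtubule destabiliser stathmin, fell by 0.47 in iCT cells (adjusted p = 0.0222, and 0.0778 without iCT mouse 1) and rose by 0.51 in relapse against iCT cells (adjusted p = 0.0193). Among 27 chromosome structure genes, Top2a and H2afx fell in iCT cells (2 of 27, against 6.31% of all genes called lower). Top2a, the topoisomerase that untangles chromosomes and is a target of doxorubicin, had 83.24, 71.67, 65.02 and 95.12 FPKM in relapse mice, 43.62, 46.05 and 43.54 in iCT mice, and 55.48, 66.85, 74.72, 63.03 and 73.98 in vehicle mice. The iCT mice were below all others. Top2a fell by 0.57 in iCT against vehicle cells (SE 0.13, adjusted p = 0.0214, limma) and rose by 0.80 in relapse against iCT cells (adjusted p = 0.00589). H2afx, the gene of the histone variant marked at DNA breaks, fell by 0.65 in iCT cells (adjusted p = 0.00354) and rose by 0.63 in relapse against iCT cells (adjusted p = 0.00543).

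Of 33 further kinetochore and checkpoint genes, Pmf1 was called higher and Ska2 and Spc25 lower in iCT against vehicle cells. None of the 10 CDK1 control genes (0 called, smallest adjusted p = 0.095, limma) or of the 14 subunits of the anaphase-promoting complex (0 called, smallest adjusted p = 0.146) passed there. Of all genes 9.62% were called in that comparison. Unadjusted p was under 0.05 for 1 gene of each of these 2 lists, against 29.8% of all genes. In relapse against iCT cells, Kntc1, a checkpoint protein, Smc1a, a cohesin subunit, and Nfya were called higher besides Stmn1, Top2a and H2afx. Over the 22 fits, the calls in iCT against vehicle cells were kept in all 22 for Mybl2 and H2afx, in 20 for Gtse1, 19 for Psrc1 and Top2a, 18 for Stmn1, 17 for Ska2, 14 for Kifc1 and Pmf1, 11 for Nfya, 8 for E2f4, 5 for Spc25 and 3 for Lin52. Those in relapse against iCT cells were kept in all 22 for H2afx and Top2a, in 21 for Smc1a, 16 for Stmn1, 15 for Kntc1 and Mybl2, and 6 for Nfya. With each of the 12 libraries left out in turn, the iCT calls were lost 11 times for Lin52 and Spc25, 10 times for E2f4, 7 times for Nfya and 5 times for Kifc1 and Pmf1. Those of Top2a and Ska2 were lost without vehicle mouse 5 (adjusted p = 0.052 and 0.0543), that of Psrc1 without vehicle mouse 5 or iCT mouse 3, and that of Stmn1 without iCT mouse 1 or 3. In relapse against iCT cells the call of Mybl2 was lost without iCT mouse 1 or any 1 relapse mouse, that of Stmn1 without iCT mouse 1 or relapse mouse 1 or 2, that of Kntc1 without relapse mouse 1, 2 or 4, and that of Nfya 9 times (adjusted p up to 0.112). Cdkn1a, which encodes the p53-induced inhibitor p21, had 22.91, 14.06, 19.38 and 17.26 FPKM in relapse mice, 101.21, 70.73 and 97.73 in iCT mice, and 13.96, 15.95, 20.96, 13.98 and 12.09 in vehicle mice. It rose by 2.48 on the log2 scale in iCT against vehicle cells (SE 0.19, adjusted p = 4.89e-05, limma). In that comparison 0 of the 50 genes were called higher and 2 lower, against 3.31% and 6.31% of all genes. A relation between Cdkn1a and the 50 genes was not tested.

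**Figure D5:**
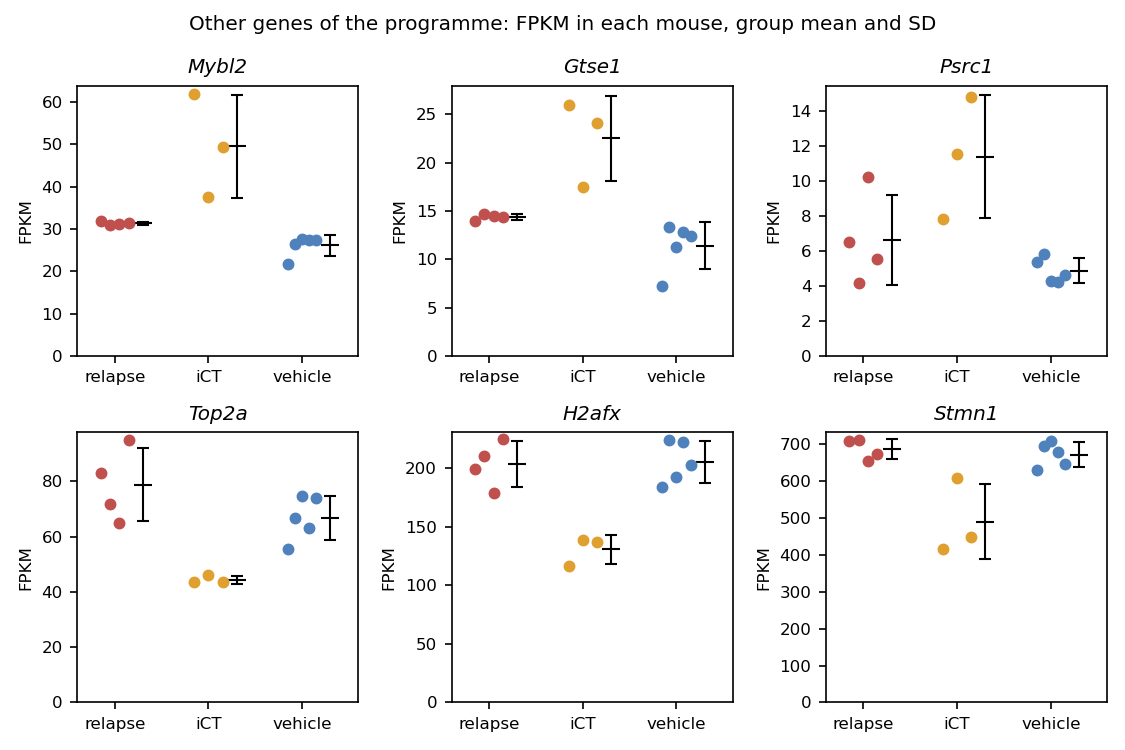
FPKM (vertical axis, from 0) of 6 further genes of the programme in each mouse, with points for single mice and bars for the group mean and SD, in relapse (n = 4), iCT (n = 3) and vehicle (n = 5). Mybl2 and Gtse1 are highest in all 3 iCT mice, while Top2a, H2afx and Stmn1 are lowest there.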

How the data were processed

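RNA was measured in GFP-sorted MLL-AF9 leukaemia cells of 12 mice, grouped by the sample titles. The deposited values are FPKM with 95% interval bounds per gene, per the file headers. STAR and Cufflinks, which the authors used to make the FPKM, are named in the submitters' processing notes. For versions, options, gene models, strand and between-library scaling, nothing is given in the sources used here. The build in those notes is mm9. All 50 genes, however, overlapped their namesakes in GRCm38, so coordinates are given as GRCm38 (1-based). FPKM depends on the library's total, so abundant genes move the rest. The number of fragments behind a value was estimated from its interval, and covers counting error only.

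From these values, log2(FPKM + 1) was analysed with limma 3.58.1 in R 4.3.3 (all 12 libraries, group as the only term, variance trend). The test covered 11019 genes, those reaching an FPKM of 1 in 3 or more libraries, with Benjamini-Hochberg adjustment over all of them and a threshold of 0.05. The log2(FPKM + 1) scale understates changes of low genes. Entries with a failed estimate (2) were left out, and 0 pairs of libraries were identical. The gene lists were chosen with earlier results of these data known. Values in every library are given for 23 of the 50 genes: those called in any comparison, in each role the 2 largest changes in iCT against vehicle and the largest in relapse against iCT among genes averaging at least 5 FPKM, and Mki67, Cdk1, Ccnb1, Plk1, Aurkb and Birc5. Further genes are those of the wider lists that were called, with Foxm1 and Cdkn1a. Promoter sequences come from RefSeq and were cut short before any annotated exon. The 21 alternatives were a pseudocount of 0.1, no filter or an FPKM of 5, median-of-ratios and quantile scaling, array weights (statmod 1.5.0), a mouse-number block, only the groups compared, each library left out, and, added after seeing the data, removal of length and GC trends (splines with 4 degrees of freedom).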

Additional observations from a re-analysis of the deposited data

Results flagged for a closer look

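Single mice stood apart from their group in 8 of the 100 sets of values examined (50 genes in the relapse and in the vehicle mice; the 3 iCT mice are too few to examine). Chance alone marks about 1 in 20 such sets. Vehicle mouse 5 was high for 3 genes. It had 25.09 FPKM of Kif11 (18.10 to 19.82 in the other vehicle mice), 13.97 FPKM of Mki67 (6.39 to 8.51) and 3.01 FPKM of Cenpe (1.25 to 1.55). Vehicle mouse 3 had 19.52 FPKM of Ect2 (13.22 to 14.48 in the others). Low values were seen for Espl1 in vehicle mouse 1, at 3.14 FPKM (5.91 to 6.80 in the others), for Ttk in vehicle mouse 2, at 7.08 FPKM (8.91 to 9.29), and for Ccna2 in vehicle mouse 4, at 54.62 FPKM (62.38 to 65.25). In the relapse group Cdca8 in mouse 4 was high, at 83.98 FPKM (76.94 to 77.90 in the others).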

How the results depend on the processing

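The iCT group rests on 3 mice, 1 of them shallow, and the relapse minus iCT calls were the least stable. For iCT against vehicle, 2 of the 50 genes were called, 4 under median-of-ratios scaling and 4 under quantile normalization (Ccnb1 and Kif20a higher were added in both). Leaving out 1 library gave 2 to 7: 7 without iCT mouse 2 (Birc5, Kif18a, Nuf2, Kif20a and Plk1 were added), where 24.8% of all genes were called, and 4 without iCT mouse 3 (Ccna2 and Kif11 were added), where 11.1% were. With length and GC trends removed the median change was 0.0609, against -0.0838. For relapse against vehicle, 4 genes were called with array weights and 4 with only the 2 groups compared, against 0. For relapse against iCT, 5 were called, 3 under median-of-ratios scaling, 2 with array weights, 1 with only the 2 groups compared, 3 with length and GC trends removed, and 2 to 8 with 1 library left out (8 without iCT mouse 3, where 17.0% of all genes were called and 2 of the 8, Ccna2 and Cks2, were called lower, and 2 without relapse mouse 2, where 4.83% of all genes were called). Their median change of 0.205 was 0.0941 under median-of-ratios scaling and 0.0155 with length and GC trends removed. The cause was not tested.

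Mouse numbers showed no sign of pairing the libraries: same-numbered mice of different groups had correlations of -0.09 to 0.10 in their deviations. Differently numbered mice were not set beside them, so these values cannot establish that the libraries are unpaired. With the number as a replicate block, 1 of the 50 genes was called in iCT against vehicle cells (Cdc25b) and 2 in relapse against iCT cells (Cdc25b and Kif11).

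Over all genes, the 1060 calls in iCT against vehicle cells were 365 higher and 695 lower, but 526 higher and 570 lower under quantile normalization and 663 higher and 626 lower with length and GC trends removed. The 1071 calls in relapse against iCT cells were 729 higher and 342 lower, but 494 and 516 under median-of-ratios scaling. The number of calls ranged from 197 to 2722 and from 252 to 1855 over the settings, and that in relapse against vehicle cells from 0 to 971 (612 with only the 2 groups compared).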

Other observations

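Genes of DNA replication, the step before G2, were also examined. Of 41 tested, 2 were called higher and 1 lower in iCT against vehicle cells, 0 in relapse against vehicle cells and 4 higher and 1 lower in relapse against iCT cells (limma, Benjamini-Hochberg adjustment over all genes), against 9.62%, 0.0% and 9.72% of all genes called in either direction. Their median log2 changes were -0.04, 0.05 and 0.09, and unadjusted p was under 0.05 for 13, 6 and 14 of them, against 29.8%, 14.6% and 29.0% of all genes. Of 10 tested genes from a list of p53 arrest and related genes, 5 were called higher in iCT against vehicle cells (Cdkn1a, Ccng1, Phlda3, Sesn2 and Zmat3). Btg2 and Ccng2 were the 2 called lower. Of all genes 3.31% were called higher and 6.31% lower. The median change of the 10 was 0.93.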
